A study of Mus musculus with 12 samples.

Results

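Dmwd, Dmpk and Six5 are 3 adjacent genes on mouse chromosome 7, with Sympk on their upstream and Fbxo46 on their downstream side. These 5 genes, of 37991 in the count table and 13538 tested, were selected on the genotype fold changes themselves, because Dmwd, Dmpk and Six5 were higher in the Runx1 knockout at both times while Sympk and Fbxo46 were not. The difference between genotypes of these 5 genes is therefore given as a description, with no test. RNA from resting B cells of mouse spleen was sequenced in 4 groups of 3 samples, 12 in all, from mice aged 8 weeks. Every group carried the CD23-iCre transgene, in which the promoter of Cd23 drives the recombinase from the transitional B cell stage. The Cre-only groups carried this transgene alone, and the Runx1 c-k/o groups (knockout in what follows) also carried the Runx1 fl/fl allele, from which Cre removes exon 4 of Runx1, a transcription factor of blood cell development. In each genotype, cells were taken before activation (rest) or after culture for 3 h in the presence of anti-IgM plus IL-4, which stimulate the B cell receptor and the IL-4 receptor. The study purified the cells by negative selection, which removes cells of other lineages and CD43+ activated B cells.

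DMWD is a WD-repeat protein, related to WDR20, a cofactor of the deubiquitinases USP12 and USP46. DMPK is a serine/threonine kinase related to the MRCK and ROCK kinases and best known from muscle, and an expanded CTG repeat in the noncoding end of the human gene causes myotonic dystrophy type 1. SIX5 is a homeodomain transcription factor whose relatives act together with EYA proteins, and the human repeat lies close to its promoter. Symplekin, encoded by Sympk, is a scaffold of the machinery that cleaves and polyadenylates the 3′ ends of mRNAs. FBXO46 is an F-box protein, the kind of subunit through which SCF ubiquitin ligases bind substrates.

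All 5 genes lie on the plus strand of chromosome 7 in mm9, in the GENCODE annotation of that build. Sympk (ENSMUSG00000023118) was annotated from 19609726 to 19639967, Dmwd (ENSMUSG00000030410) from 19661598 to 19668125, Dmpk (ENSMUSG00000030409) from 19669198 to 19679170, Six5 (ENSMUSG00000040841) from 19679893 to 19683694 and Fbxo46 (ENSMUSG00000050428) from 19705208 to 19723610. The end of Dmwd is 1072 bp from the start of Dmpk, and the end of Dmpk is 722 bp from the start of Six5. These 3 genes thus follow each other head to tail. On the outer sides lie Rsph6a, a radial spoke gene of cilia and flagella on the plus strand between Sympk and Dmwd, and Gm4969 on the minus strand between Six5 and Fbxo46. Rsph6a had 2 counts and Gm4969 had 48 counts over the 12 samples, with at most 11 in any of them. Neither was therefore tested, and a genotype difference in either is not known. No other annotated gene overlaps Dmwd or Six5, and the microRNA gene AC170864.1 inside Dmpk had 6 counts in all.

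**Figure D1:**
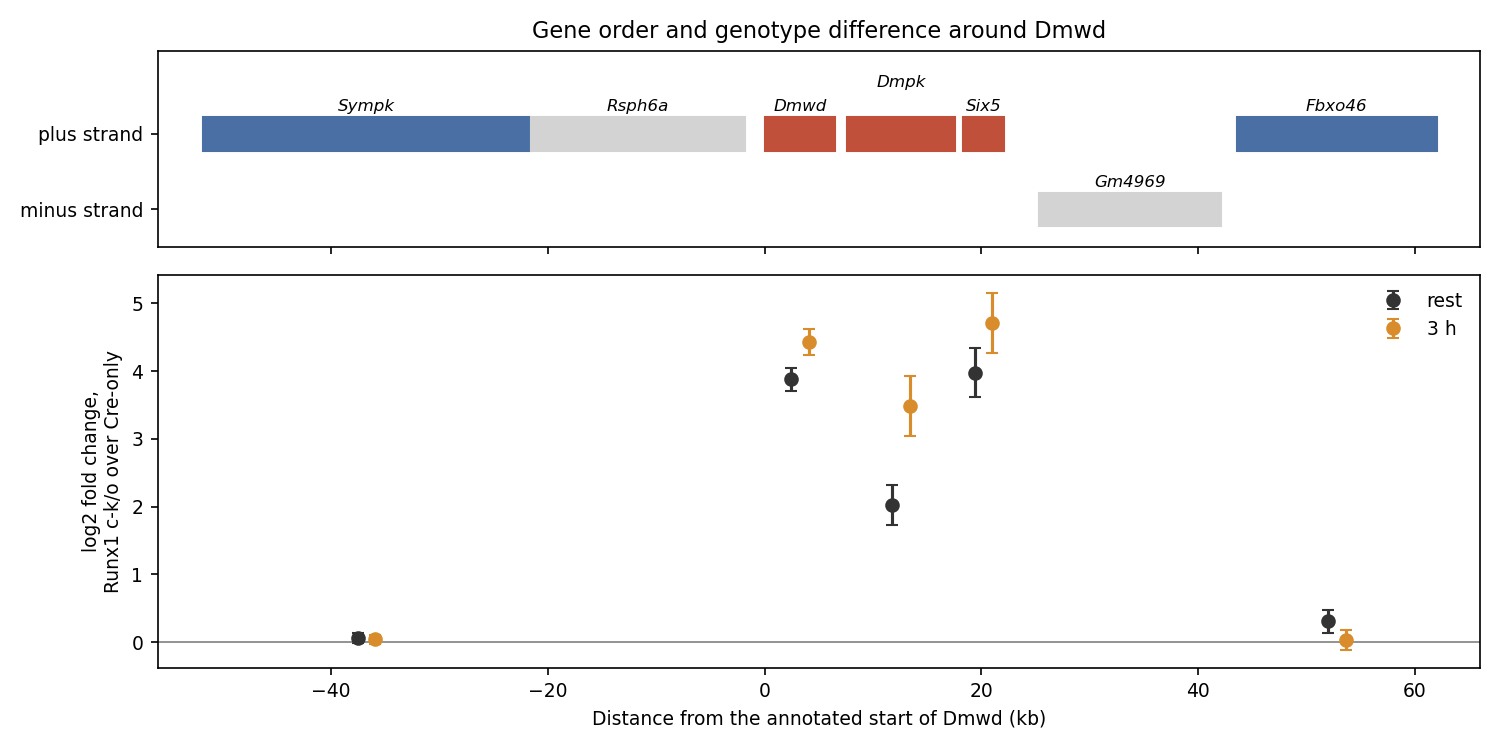
The upper panel draws the annotated genes by distance from the start of Dmwd (kb) on each strand, with Dmwd, Dmpk and Six5 in red, Sympk and Fbxo46 in blue and the genes that were not tested in grey. The lower panel shows the log2 fold change of knockout over Cre-only cells with its standard error at rest and at 3 h, which lies between 2.02 and 4.71 for the red genes and between 0.03 and 0.31 for the blue genes.

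The sequences upstream of the 3 genes that were high in the knockout are shown because these genes were high together although each is annotated with a start of its own. The windows are the 250 bases before the RefSeq start of each gene, taken from RefSeq (GRCm38.p6), plus strand, and each matched mm9 at a single place: chr7:19661299-19661548 for Dmwd, chr7:19668957-19669206 for Dmpk and chr7:19679643-19679892 for Six5. The RefSeq starts of Dmwd and Dmpk lie slightly apart from the starts annotated by GENCODE. RUNX proteins bind the core TGTGGT or TGCGGT, which read ACCACA and ACCGCA on the other strand. Capitals mark a match to either core on either strand.
Dmwd: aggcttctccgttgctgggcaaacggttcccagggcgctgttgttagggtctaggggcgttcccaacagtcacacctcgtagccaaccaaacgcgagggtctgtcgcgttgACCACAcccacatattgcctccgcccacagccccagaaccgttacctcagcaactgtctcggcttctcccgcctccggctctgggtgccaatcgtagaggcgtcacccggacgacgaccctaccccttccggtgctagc
Dmpk: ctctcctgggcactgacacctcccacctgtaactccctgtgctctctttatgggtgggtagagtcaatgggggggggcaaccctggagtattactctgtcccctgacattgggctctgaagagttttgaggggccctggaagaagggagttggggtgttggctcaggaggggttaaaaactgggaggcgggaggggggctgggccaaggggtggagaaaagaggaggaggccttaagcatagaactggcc
Six5: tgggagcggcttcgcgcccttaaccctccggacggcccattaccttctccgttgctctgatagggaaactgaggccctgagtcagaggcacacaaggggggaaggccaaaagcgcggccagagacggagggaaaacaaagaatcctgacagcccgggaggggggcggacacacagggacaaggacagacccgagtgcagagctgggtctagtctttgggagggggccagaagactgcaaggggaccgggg
The Dmwd window held 1 match, ACCACA, from 139 to 134 bases before the start, and those of Dmpk and Six5 held none. The windows of Sympk and Fbxo46 held none either. Among all 32851 windows of this length, 14.05% held TGTGGT, 5.10% held TGCGGT and 18.6% held at least 1 of them on either strand, so a single match is common. A match describes letters only and is not a measured binding site. The windows of Dmwd and Six5 were rich in G and C, at 62.4% and 62.8%, with 20 and 13 CpG dinucleotides. The Dmpk window, at 58.4%, held 1 CpG, while the median window had 52.4% G and C and 6 CpG. Sympk had 30 CpG in its window and Fbxo46 had 12.

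Libraries held between 14442251 and 23641552 counts on genes. Values are given as normalized CPM, read counts relative to the TMM-adjusted library total, with TMM factors from 0.886 to 1.07. A level of 3 counts, taken as the floor, corresponded to between 0.129 and 0.199 normalized CPM. Markers of B cells (Cd79a, Cd79b, Ms4a1, Pax5 and Cd22) summed to between 5577 and 6038 normalized CPM in resting Cre-only and to between 6058 and 6152 in resting knockout cells, which did not overlap, and to between 1156 and 1588 over both genotypes at 3 h, and none of the 5 was at 0 throughout a group. Counts on Runx1 cover all its exons, not exon 4 alone, and do not check the deletion. Runx1 lay between 81.8 and 86.7 normalized CPM in resting Cre-only and between 95.7 and 103 in resting knockout cells, and between 34.9 and 38.5 and between 47.3 and 74.5 at 3 h. Replicate 2 of the resting knockout cells and replicate 1 of the knockout cells at 3 h stood apart from the other samples of their groups, with correlations of log2 values across genes from 0.979 to 0.984 against 0.989 to 0.994 for all other pairs of replicates.

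Dmwd was low in Cre-only cells and high in knockout cells. Resting Cre-only replicates 1 to 3 held 6.79, 9.34 and 10.4 normalized CPM of Dmwd, and the resting knockout replicates held 138, 125 and 126. Activated Cre-only cells had 1.34, 1.502 and 2.04, and activated knockout cells 35.6, 38.8 and 29.7. The genotypes did not overlap at either time, and knockout cells after activation still had a higher normalized level of Dmwd than Cre-only cells before it. The log2 fold change of knockout over Cre-only cells came to 3.88 at rest (standard error, SE, 0.169) and to 4.43 at 3 h (SE 0.197). These correspond to 14.7-fold and 21.6-fold higher levels. Only 5 of the 13538 tested genes had a higher log2 fold change at rest, and the rank of Dmwd was 6 at 3 h as well. For comparison, 0.731% of tested genes were called higher in knockout cells at rest and 1.47% at 3 h (edgeR adjusted p under 0.05), and the 3 knockout samples all lay above the 3 Cre-only samples for 12% of genes at rest and 9.5% at 3 h.

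Dmpk, which starts just downstream, was higher in the knockout by a smaller factor at rest. Resting Cre-only cells had 7.57, 7.23 and 11.1 normalized CPM, and resting knockout cells had 34.8, 35.2 and 34.8. At 3 h Cre-only cells were at 0.173, 0.588 and 1.08, on 4, 9 and 17 counts, and knockout cells at 4.63, 9.45 and 5.18. The genotypes did not overlap at either time, but the activated knockout samples lay within or below the range that resting Cre-only cells covered. The log2 fold change was 2.02 at rest (SE 0.291, 4.06-fold) and 3.49 at 3 h (SE 0.440, 11.2-fold). At 3 h it ran from 2.92 without replicate 1 of the Cre-only cells to 4.19 without their replicate 3, so its size depended on a few reads in these libraries. The log2 fold change of Dmpk ranked 41 at rest and 23 at 3 h among all tested genes.

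Six5 was at or near the limit of detection in Cre-only cells. Its reads numbered 2, 1 and 2 in resting Cre-only cells and 1, 1 and 0 at 3 h, against 25, 25 and 24 in resting knockout cells and 19, 17 and 19 at 3 h. In normalized CPM the knockout samples lay between 1.46 and 1.62 at rest and between 1.12 and 1.22 at 3 h, while no Cre-only sample exceeded 0.124, which is below the floor. Six5 therefore passed the filter on low counts through the knockout samples. Scaled to TMM-adjusted library totals, the knockout had 16.9 times the Six5 counts at rest (74 against 5 counts, 95% counting interval 6.94 to 53.7). At 3 h it had 31.2 times the counts (55 against 2 counts, 8.24 to 264). These intervals cover counting error only, on counts pooled over the 3 samples of a group. They are not a test of the genotype difference, on which Six5 was chosen. The fitted log2 fold changes, 3.98 at rest (SE 0.362) and 4.71 at 3 h (SE 0.445), depend on the small count that the fit adds to the Cre-only samples. Their SEs are smaller than the counting intervals imply.

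The genes on either side showed no such difference. Sympk had 144, 147 and 147 normalized CPM in the resting Cre-only samples, 153, 156 and 146 in the resting knockout samples, and 198, 204 and 202 against 206, 195 and 218 at 3 h. Fbxo46 had 5.69, 5.07 and 5.83 against 5.68, 9.11 and 5.77 at rest, and 21.7, 23.6 and 21.0 against 23.6, 22.05 and 21.9 at 3 h. For both genes the genotypes overlapped at each time. The log2 fold change of Sympk was 0.06 at rest (SE 0.0725) and 0.04 at 3 h (SE 0.0723), and that of Fbxo46 was 0.31 (SE 0.169) and 0.03 (SE 0.147). The single high Fbxo46 value at rest came from replicate 2 of the knockout cells, which stood apart from its group, and without that library the resting difference of Fbxo46 was 0.05 on the log2 scale.

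**Figure D2:**
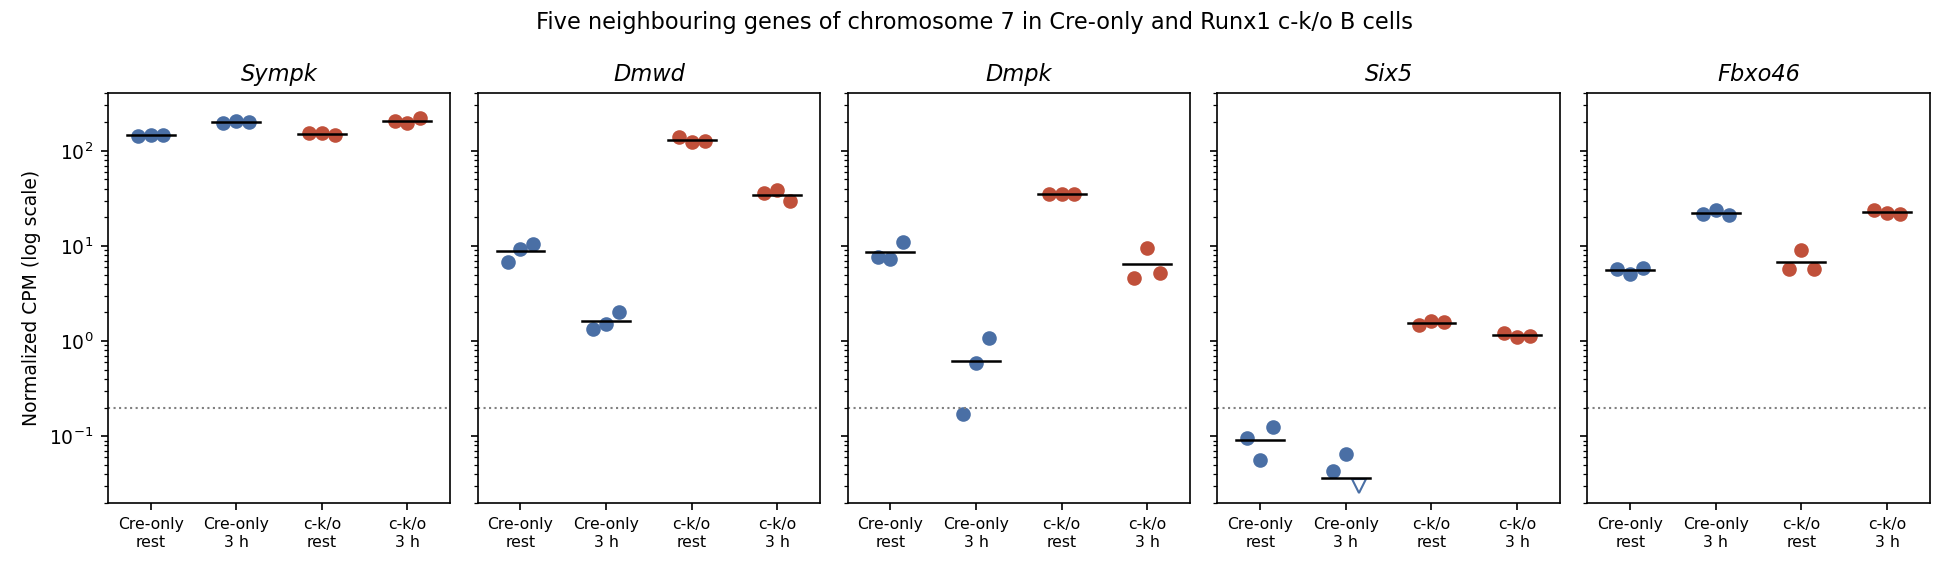
Each point is a sample, on a log axis of normalized CPM, with a black line at the mean of the 3 samples of a group, Cre-only in blue and knockout in red. The dotted line marks 0.199 normalized CPM, the highest floor of 3 counts in any library, and the open triangle stands for the Cre-only sample at 3 h with no Six5 count. Red points lie above the blue ones of the same time for Dmwd, Dmpk and Six5 and overlap them for Sympk and Fbxo46.

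In bulk RNA, fewer cells of a type and less RNA per cell cannot be told apart, so levels here are averages over all cells of a sample. Because Dmpk is abundant in skeletal and heart muscle, 8 muscle markers (Ckm, Acta1, Des, Myl1, Tnnt3, Tnnt2, Actn2 and Myh6) were read beside it. Their sum ranged from 8.58 to 10.04 normalized CPM in the resting Cre-only samples and from 6.46 to 11.2 in resting knockout cells, and from 1.40 to 1.47 and from 1.57 to 1.93 at 3 h. The myosin light chain gene Myl1 was at 0 in all samples of both resting groups, and the cardiac myosin gene Myh6 in all samples of both groups at 3 h. Actn2 and Myh6 were also at 0 throughout resting Cre-only but not resting knockout cells, and Myl1 throughout knockout but not Cre-only cells at 3 h. Tnnt3 had the highest mean of the 8 in every group, followed at rest by Acta1 in Cre-only and Ckm in knockout cells. Thus the summed muscle markers overlapped between genotypes at rest, where Dmpk did not, and at 3 h the knockout sums lay slightly above the Cre-only sums. Markers of red blood cells (Alas2, Hba-a1, Hbb-b1 and Klf1) tended to be higher in the knockout, though the genotypes overlapped. They summed to between 36.2 and 252 in resting Cre-only and to between 245 and 409 in resting knockout cells, and to between 12.5 and 135 and between 115 and 202 at 3 h, with none of the 4 at 0 throughout a group. Myeloid markers (Lyz2, Itgam, Csf1r, Cd68, S100a8 and S100a9) summed to between 216 and 262 in resting Cre-only and to between 193 and 367 in resting knockout cells. T cell markers (Cd3d, Cd3e, Cd3g, Cd4, Cd8a and Lat) summed to between 1.71 and 7.47 over all samples, and those of NK cells (Ncr1, Klrb1c, Nkg7 and Eomes) to between 0.588 and 3.52. Sums of plasma cell markers (Sdc1, Prdm1, Xbp1 and Igj) were separate at 3 h. They ran from 286 to 348 in Cre-only and from 398 to 439 in knockout cells. At rest they overlapped, from 195 to 264 and from 165 to 401. Xbp1 had the highest mean among them at 3 h and Igj at rest, in both genotypes. The sum alone does not measure the number of plasma cells. The part of other cell types in the difference at the locus was not tested.

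Levels of different genes were compared per kilobase of annotated exon (RPKM). In resting Cre-only cells Sympk stood highest, at 18.7 ± 0.232 RPKM (mean ± SD, n = 3). Dmwd followed at 2.76 ± 0.580, Dmpk at 1.99 ± 0.492 and Fbxo46 at 1.83 ± 0.133, and Six5 was at 0.0324 ± 0.0118. Every sample of Dmwd lay above every sample of Fbxo46, while Dmpk overlapped both, so its place in the order is not resolved. In resting knockout cells the order began with Dmwd, at 40.4 ± 2.27 RPKM, above Sympk at 19.5 ± 0.644. Dmpk came next at 8.04 ± 0.0474, then Fbxo46 at 2.27 ± 0.646 and Six5 at 0.546 ± 0.0286, with no overlap between neighbours in this order. Among all tested genes, the mean RPKM of Dmwd stood at percentile 33.7 in resting Cre-only and 89.6 in resting knockout cells. That of Six5 stayed low in the knockout too, at percentile 12.9.

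At 3 h the order in Cre-only cells was Sympk at 25.9 ± 0.379 RPKM, Fbxo46 at 7.30 ± 0.449, Dmwd at 0.507 ± 0.114, Dmpk at 0.141 ± 0.105 and Six5 at 0.0127 ± 0.0116. In knockout cells it was Sympk at 26.6 ± 1.51 RPKM, Dmwd at 10.8 ± 1.43, Fbxo46 at 7.45 ± 0.315, Dmpk at 1.48 ± 0.607 and Six5 at 0.404 ± 0.0214. Neighbours in both orders did not overlap, although Six5 in Cre-only cells rested on 2 counts. With the length of the longest transcript in place of all exons, Sympk moved to 30.5 RPKM and Dmpk to 3.02 in resting Cre-only cells, and the order of the means was the same in each of the 4 groups.

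The balance among the 3 genes differed between groups. The ratio of Dmwd to Dmpk in RPKM lay between 1.22 and 1.75 in resting Cre-only and between 4.82 and 5.37 in resting knockout cells. At 3 h it was 10.5, 3.46 and 2.55 in the Cre-only replicates, where Dmpk had few counts, and 10.4, 5.56 and 7.78 in the knockout replicates. The genotypes were thus separate at rest and overlapped at 3 h. For every 100 Dmwd reads, the resting knockout samples had between 1.06 and 1.29 Six5 reads and those at 3 h between 2.88 and 3.76, so Six5 kept more of its resting level than Dmwd did. In resting Cre-only cells the same value lay between 0.610 and 1.42, on 1 or 2 Six5 reads per sample.

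The change from rest to 3 h, called activation here, was not used in the choice of genes. It was tested in each genotype with edgeR's quasi-likelihood test and Benjamini-Hochberg adjustment over all 13538 genes. No group was cultured without anti-IgM and IL-4, so stimulation and culture itself cannot be told apart. Changes are relative to the library, since the count table holds no spike-in entries and amounts per cell are not known. In Cre-only cells Dmwd and Dmpk fell while Sympk and Fbxo46 rose. Dmwd had a log2 fold change of -2.45 (SE 0.204, edgeR adjusted p = 3.80e-07) and was left with 18.4% of its resting mean. Dmpk had a log2 fold change of -3.91 (SE 0.427, edgeR adjusted p = 3.98e-06) and was left with 7.12%. The size for Dmpk rested on small counts at 3 h, with -3.34 without replicate 1 and -4.61 without replicate 3 of the Cre-only cells at 3 h. Sympk rose by 0.46 on the log2 scale (SE 0.0725, edgeR adjusted p = 8.29e-05) and Fbxo46 by 1.996 (SE 0.161, edgeR adjusted p = 2.98e-07), each with all samples at 3 h above all samples at rest, as for 43.8% of tested genes. Six5 was under the floor at both times, and no change is given. Calls were frequent in this comparison: 75% of all tested genes changed, with 38.6% of the tested genes higher and 36.4% lower. The summed B cell markers were also lower at 3 h, as given above, and myeloid markers summed to between 21.4 and 49.1 normalized CPM over both genotypes at 3 h. Their part in the changes on activation was not tested.

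In knockout cells the same 4 genes changed in the same directions, against 74.3% of all tested genes called, 37.7% higher and 36.6% lower. Dmwd had a log2 fold change of -1.90 (SE 0.152, edgeR adjusted p = 3.41e-07), which left 26.8% of the resting mean. Dmpk had -2.45 (SE 0.301, edgeR adjusted p = 1.17e-05), which left 18.4%. Both genes were thus lower at 3 h than at rest in the presence and in the absence of intact Runx1. Six5 did not pass the test, with a log2 fold change of -0.43 (SE 0.242, edgeR adjusted p = 0.125), although its 3 activated samples all lay below the 3 resting ones, as they did for 36.3% of tested genes. Sympk rose by 0.45 (SE 0.0726, edgeR adjusted p = 0.000119) and Fbxo46 by 1.72 (SE 0.160, edgeR adjusted p = 1.10e-06).

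**Figure D3:**
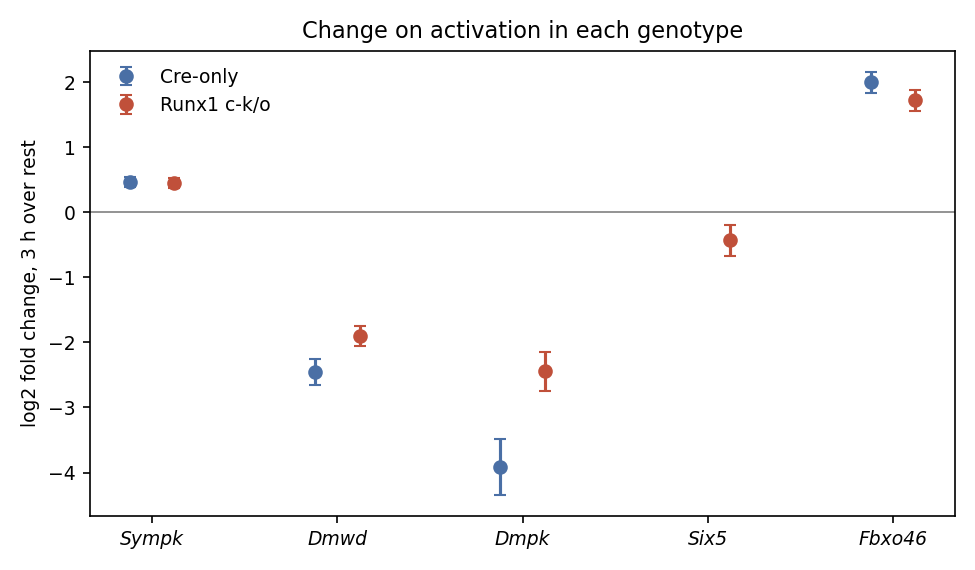
Points give the log2 fold change of 3 h over rest for each gene, with its standard error, in Cre-only cells in blue and knockout cells in red. Dmwd and Dmpk lie below 0 and Sympk and Fbxo46 above 0 in both genotypes, and Six5 has no Cre-only point because its counts were under the floor.

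Whether activation changed a gene by the same factor in both genotypes was tested as an interaction. The log2 change was 0.55 less negative in knockout than in Cre-only cells for Dmwd (SE 0.255, edgeR adjusted p = 0.977) and 1.46 less negative for Dmpk (SE 0.552, edgeR adjusted p = 0.771). Neither passed after adjustment, in a comparison that called 0.0813% of all tested genes. For Dmpk the difference was 0.90 without replicate 1 and 2.17 without replicate 3 of the Cre-only cells at 3 h. A larger genotype difference at 3 h than at rest was therefore not shown for either gene.

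The surroundings were examined by the same test to see how far along the chromosome a difference could be found. Besides the 5 genes, 93 annotated genes start within 1 Mb of the start of Dmwd, and 43 of them were tested, from Pglyrp1 at -191559 bp to Pvr at 844911 bp. At rest 0 of the 43 were called in either direction by edgeR, against 1.49% of all tested genes, while 4 had an unadjusted p under 0.05 and DESeq2's test called 0. At 3 h 0 were called by edgeR, against 2.77% of all tested genes, with 7 at an unadjusted p under 0.05 and 0 called by DESeq2. A count of 0 among 43 genes is near these background shares and does not set the region apart. No share of all tested genes is given at an unadjusted p under 0.05, so those counts have no background beside them. The median log2 fold change of the 43 genes was 0.12 at rest and 0.11 at 3 h, beside 0.03 and 0.01 over all tested genes. At each time 30 of the 43 were above 0. The share of all tested genes above 0 is not given here, so this count does not show a rise of the region.

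Of the 43 genes, 5 start less than 100 kb from Dmwd. The gene models Gm10676, at -83475 bp, and Gm16266, at -75027 bp, had few reads. Gm10676 had a log2 fold change of 0.51 at rest (SE 0.342, edgeR adjusted p = 0.631) and 0.08 at 3 h (SE 0.669, edgeR adjusted p = 0.960), and Gm16266 had 0.35 (SE 0.225, edgeR adjusted p = 0.617) and -0.28 (SE 0.284, edgeR adjusted p = 0.611). Next come Irf2bp1, a transcriptional corepressor gene, at -72184 bp, and Qpctl, a glutaminyl cyclase gene, at 72947 bp. Irf2bp1 had a log2 fold change of 0.30 at rest (SE 0.149, edgeR adjusted p = 0.510) and 0.30 at 3 h (SE 0.143, edgeR adjusted p = 0.329). Qpctl had 0.01 (SE 0.121, edgeR adjusted p = 0.986) and 0.06 (SE 0.119, edgeR adjusted p = 0.810). The spliceosomal gene Snrpd2, at 73473 bp, had 0.34 (SE 0.254, edgeR adjusted p = 0.661) and 0.42 (SE 0.249, edgeR adjusted p = 0.410). The highest log2 fold change among these 5 at either time was thus 0.51, and the lowest among Dmwd, Dmpk and Six5 was 2.02. At each time the highest knockout sample of Irf2bp1 and of Snrpd2 was the library that stood apart from its group. For Snrpd2 it held 64.6 normalized CPM at rest, against 35.7 and 38.9, and 148 at 3 h, against 83.0 and 78.7.

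The highest log2 fold change among the 43 genes was that of Fosb, an immediate early gene of the AP-1 family 233796 bp from Dmwd, at 3 h. It was named, like the genes of the preceding paragraph, after its values were seen. Its value was 3.97 (SE 1.02, edgeR adjusted p = 0.0674), and a single library set it: replicate 2 of the knockout cells at 3 h held 1870 Fosb counts, while replicates 1 and 3 held 112 and 72. The same library had the highest Dmpk value of its group, and without it the log2 fold change of Dmpk at 3 h was 3.10. Without replicate 3 of the same group, Fosb was called, with Pglyrp1 and Gm16184 (edgeR adjusted p from 0.0148 to 0.0435), which gave 3 of 43. On activation 33 of the 43 were called in Cre-only cells (16 higher and 17 lower) and 34 in knockout cells (17 in each direction), near the 75% and 74.3% of all tested genes called.

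**Figure D4:**
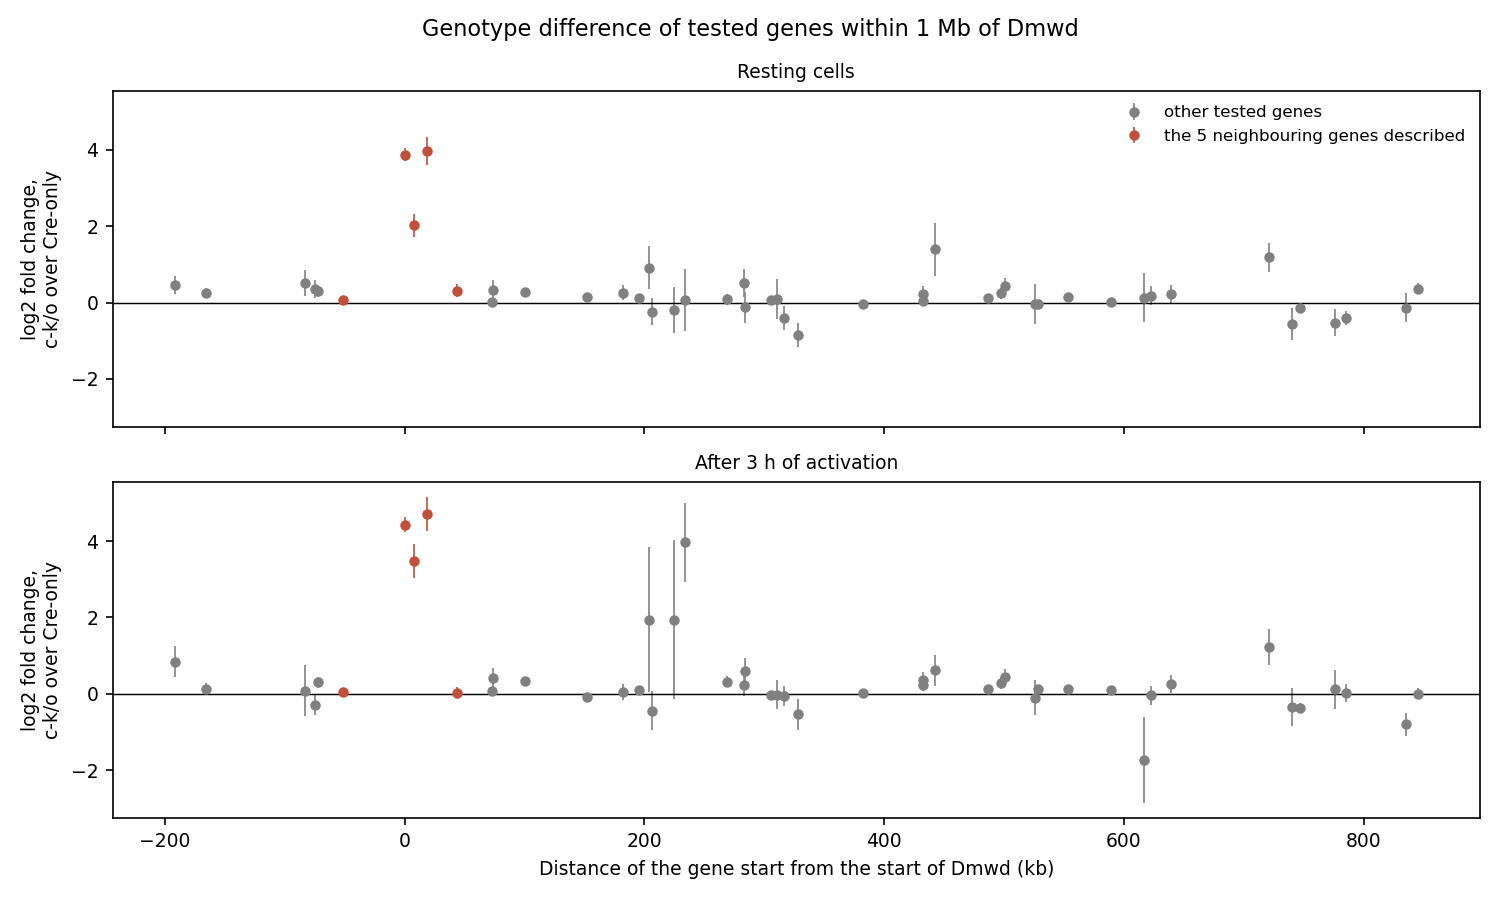
The log2 fold change of knockout over Cre-only cells, with its standard error, is plotted against the distance of each gene start from that of Dmwd (kb), at rest above and at 3 h below, for the 5 genes in red and the 43 other tested genes in grey. Dmwd, Dmpk and Six5 form a narrow group between 2.02 and 4.71, and the highest grey point is Fosb at 3.97 at 3 h.

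Genes that work with, or are related to, the products of the 5 genes were then counted. The lists held 43 tested genes besides the members, and the only call between genotypes by edgeR was Eya1, at both times. Of all tested genes, 1.49% and 2.77% were called in either direction and 0.761% and 1.3% were called lower. Thus 1 call among 43 genes is near the shares in either direction and does not set the lists apart. At an unadjusted p under 0.05 there were 2 list genes at rest and 6 at 3 h, with no share of all tested genes given at that threshold. DESeq2's test called 2 at rest (with Stk38) and 3 at 3 h (with Mbnl1 and Stk38l), beside 378 and 709 of all tested genes. Eya1 encodes a transcriptional coactivator and tyrosine phosphatase that works with homeodomain proteins such as SIX5. It was at 8.43, 9.28 and 9.73 normalized CPM in resting Cre-only and at 2.69, 2.07 and 2.46 in resting knockout cells. After 3 h it was at 9.15, 7.71 and 8.03 in Cre-only and at 2.19, 1.44 and 2.47 in knockout cells. Eya1 was thus lower in knockout cells without overlap, as for 11.6% of genes at rest and 12.3% at 3 h in that direction. A link between Six5 and Eya1 was not tested. The log2 fold change of Eya1 was -1.92 at rest (SE 0.182, edgeR adjusted p = 0.000263) and -2.02 at 3 h (SE 0.186, edgeR adjusted p = 0.000149). Its adjusted p stayed under 0.05 in 20 of 20 alternatives at each time. Of the 12 genes of the Six5, Eya and Dach families on this list only Six5, Eya1 and Eya3 were tested, and Eya3 had -0.10 (SE 0.0952, edgeR adjusted p = 0.717) and -0.13 (SE 0.0940, edgeR adjusted p = 0.485).

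The partners of DMWD-like proteins did not pass the test between genotypes, with 0 of 5 called at either time and median log2 fold changes of -0.03 and -0.01. Usp12, the deubiquitinase gene, had 0.07 at rest (SE 0.0702, edgeR adjusted p = 0.737) and -0.14 at 3 h (SE 0.0708, edgeR adjusted p = 0.353). On activation of Cre-only cells it fell by 0.55, while Wdr48, whose product activates USP12, USP46 and USP1, rose by 1.19 on the log2 scale (edgeR adjusted p = 1.58e-05 and 1.39e-07). In that comparison 2 of the 5 rose and 1 fell, beside 38.6% and 36.4% of all tested genes, and in knockout cells 4 rose and 1 fell, beside 37.7% and 36.6%.

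Kinases related to DMPK also gave 0 of 10 calls between genotypes, with medians of -0.09 at rest and -0.19 at 3 h. The smallest p among them was that of Stk38l, which encodes the NDR2 kinase, at 0.46 at 3 h (SE 0.117, edgeR adjusted p = 0.0616). Stk38l was called at 3 h by DESeq2, with an RUVs factor in either tool and in some other alternatives. Stk38 had -0.30 at rest (SE 0.0813, edgeR adjusted p = 0.121), and was called there by DESeq2 and with an RUVs factor in either tool. Rock1 had -0.41 at 3 h (SE 0.125, edgeR adjusted p = 0.118), and was called there with an RUVs factor in either tool and without some single samples. On activation 2 of the 10 rose and 5 fell in Cre-only cells, and 2 rose and 6 fell in knockout cells, beside the same shares of all tested genes. The splicing and RNA-binding factors of the MBNL and CELF families, which are disturbed by the expanded human DMPK repeat, gave 0 of 5 calls between genotypes, with medians of -0.15 at rest and -0.32 at 3 h. Mbnl1, Celf1 and Mbnl3 had an unadjusted p under 0.05 at 3 h. Mbnl1 had a log2 fold change of -0.37 there (SE 0.104, edgeR adjusted p = 0.0939), and was called by DESeq2, with an RUVs factor in either tool and without replicate 3 of the knockout cells at 3 h. It fell in Cre-only cells from 530.5 ± 15.01 to 347.4 ± 11.7 normalized CPM on activation (mean ± SD of 3 samples, log2 fold change -0.61, SE 0.104, edgeR adjusted p = 0.000169). Of this list, 1 gene rose and 2 fell in Cre-only cells and 1 rose and 3 fell in knockout cells, again beside those shares.

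For Sympk, the list held 18 tested genes of mRNA 3′ end processing, of which 0 were called between genotypes at either time, with medians of -0.02 and -0.05. As Sympk did, most of them rose on activation: 15 rose and 2 fell in Cre-only cells, and 14 rose and 1 fell in knockout cells, beside 38.6% and 37.7% of all tested genes that rose. Cpsf2, which encodes a subunit of the cleavage and polyadenylation specificity factor, rose by 0.66 on the log2 scale in each genotype (SE 0.0751 and 0.0754, edgeR adjusted p = 5.16e-06 and 5.99e-06). Pcf11, which encodes a termination factor, fell instead, by 0.51 in Cre-only cells and by 0.69 in knockout cells (edgeR adjusted p = 0.00112 and 0.000104). For Fbxo46, the SCF core genes Skp1a, Cul1 and Rbx1 all rose on activation in both genotypes, and 0 of 3 were called between genotypes.

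**Figure D5:**
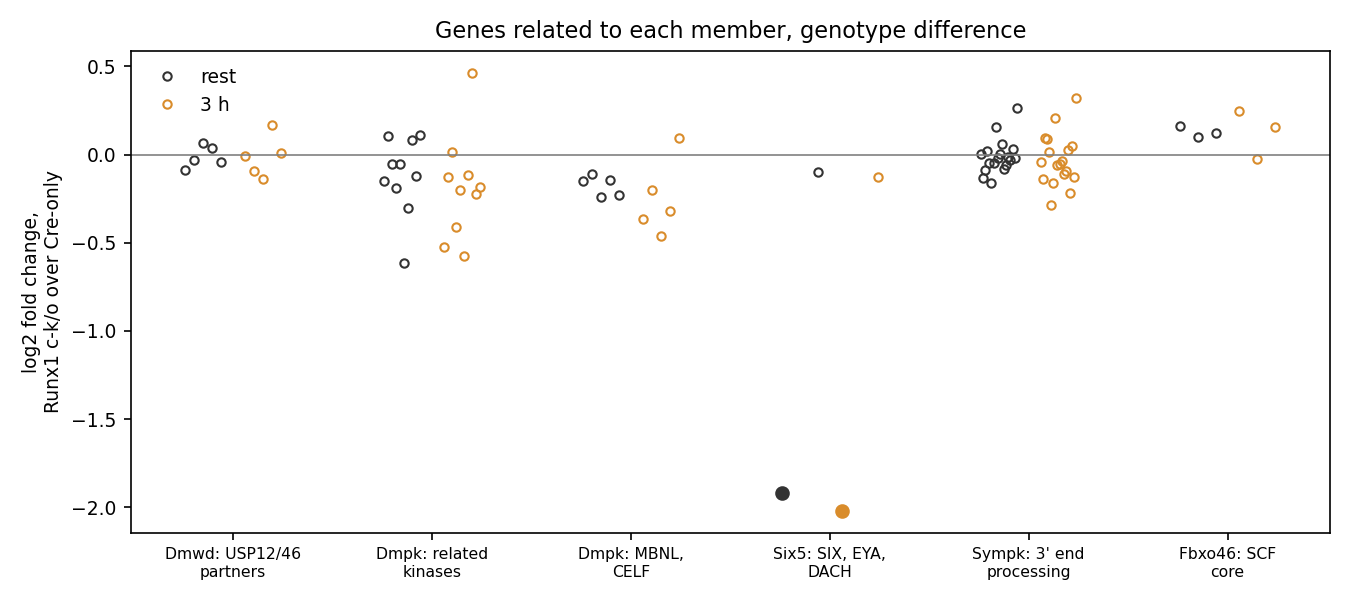
Each circle is a tested gene of a list written for a member, placed by its log2 fold change of knockout over Cre-only cells at rest or at 3 h, and filled where edgeR's adjusted p was under 0.05. The filled circles near -2 are Eya1 at both times, and all others are open.

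Across the 12 samples, the genes outside the locus whose log2 values (normalized CPM plus 0.1) ran closest to those of Dmwd were Cd200 (Pearson r = 0.984), Dab2ip (r = 0.973), Serpine2 (r = 0.972), Hopx (r = 0.965) and Rhobtb1 (r = 0.961). These genes lie on chromosomes 16, 2, 1, 5 and 10. Within the locus, r to Dmwd was 0.930 for Six5, 0.907 for Dmpk, -0.37 for Sympk and -0.38 for Fbxo46. The 12 points fall into 4 groups, so r mainly reflects the 4 group means, and it is a description only. Cd200, which encodes a membrane glycoprotein that binds an inhibitory receptor, had mean levels of 35.0 and 79.1 normalized CPM in resting Cre-only and knockout cells and of 16.0 and 55.7 at 3 h. Dab2ip, a gene for a Ras GTPase-activating protein, had 9.90 and 39.3 at rest and 2.32 and 13.3 at 3 h. Both genes, like Dmwd, were at their highest mean in resting knockout and at their lowest in activated Cre-only cells, but over a narrower range than Dmwd, whose means were 8.85, 130 and 1.63, 34.7 normalized CPM in the same order.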

How the data were processed

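RNA was measured in 12 samples, 3 in each of the 4 groups named in the sample labels. Per the labels and the study's methods, the authors added ERCC spike-in RNA to the lysates, prepared stranded poly(A) libraries from 500 ng of RNA, and mapped read pairs to mm9 with TopHat2 (2.0.11 in the submitters' processing notes) against Ensembl gene models. The deposited values are raw featureCounts counts, a whole number per gene and sample. The strand setting of the counting and its handling of reads with several alignments are not given in the sources used here. Of 37991 identifiers, 37205 had a symbol in the GENCODE annotation of mm9, and the table holds no spike-in entries.

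Genes were filtered with filterByExpr of edgeR 4.0.16 (minimum 10 counts), which left 13538, normalized by TMM, and fitted as 4 groups with the robust quasi-likelihood method in R 4.3.3. P-values were adjusted by the Benjamini-Hochberg method over all tested genes, with a threshold of 0.05, and percentages of genes called are shares of these genes. Standard errors were back-calculated as the absolute log2 fold change divided by the square root of the quasi-likelihood F statistic. They are therefore approximate, more so for low counts and for fold changes near 0. RPKM is normalized CPM per kilobase of the union of annotated exons. Tables were made with Python 3.11.15, pandas 2.3.3 and scipy 1.17.1. The fold changes of the members and the counts of called genes were computed again with the size factors of DESeq2 in edgeR, without the count filter, with a filter of 10 counts in each sample, with DESeq2 (version 1.42.0, Wald test), with an RUVs factor added to either tool, with a term for replicate number, with the other groups removed, with single samples removed, with windows of 0.5 and 2 Mb, and RPKM with longest-transcript lengths. Correlations, ratios between genes and marker sums were not computed again. The study used DESeq2 with RUV-seq factors, for which the number of factors is not given in the sources used here. The fits were tested on simulated data.

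The 5 genes, the lists and the tests were chosen with earlier results of these data known. Some listed marker genes are not reported here and were left out of the sums. By rule, the genes named were the 5 members, Runx1, called neighbours within 1 Mb, genes lying between members, the 5 genes most correlated with Dmwd, and up to 4 genes of each list with the smallest p between genotypes. Other neighbouring genes were named after their values were seen. The study describes its samples as biological replicates. The labels number them 1 to 3 but name no shared animal or day. Deviations of same-numbered samples correlated at 0.275, 0.176 and 0.144 between resting and 3-h Cre-only samples, so these pair by the data. Counting intervals and floors cover counting error only, since reads carried no molecular identifiers.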

Additional observations from a re-analysis of the deposited data

How the results depend on the processing

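Dmwd, Dmpk and Six5 were chosen on their genotype difference in these same samples, so refits describe its size and are no support for it. In the alternatives that fitted them, the log2 fold change of Dmwd ran from 3.71 to 4.01 at rest and 4.28 to 4.61 at 3 h. That of Dmpk ran from 1.91 to 2.24 and 2.92 to 4.19, and that of Six5 from 3.75 to 4.19 and 4.29 to 5.14. Dmpk and Six5 were removed by the filter of at least 10 counts in every sample. Sympk lay between 0.04 and 0.08 at rest and between -0.0038 and 0.08 at 3 h, and Fbxo46 between 0.05 and 0.43 and between -0.03 and 0.08. No call on activation or of the interaction changed for a member in any alternative that gave it. Among the members, 4 were called on activation in each genotype and 0 in the interaction, also without each sample in turn (4 to 4, and 0 to 0).

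The replicate block over all samples gave log2 fold changes of -2.44 for Dmwd and -3.91 for Dmpk on activation of Cre-only cells, and pairing within each genotype gave -2.43 and -3.93. Neither block changed a call of a member. In Runx1 c-k/o cells the numbers did not pair the samples (-0.254, -0.264 and 0.254 between rest and 3 h). Each resting sample correlated best with a 3-h sample of another number (0.268, 0.477 and 0.309), the highest being the libraries that stood apart.

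The number of genes called among all tested moved with the setting, and the cause was not tested. At rest it was 202 in the reported fit, 611 with an RUVs factor in DESeq2, 524 with it in edgeR, 378 with DESeq2's Wald test, and 81 to 386 without each sample in turn. At 3 h it was 375, and 1230, 1036 and 709 in the same settings, 158 with only the groups compared, which holds fewer samples, and 180 to 617 without each sample. For the interaction it was 11, and 253, 142 and 83, with 4 when the block was set within each genotype and 4 to 31 without each sample. On activation it ran from 9628 to 10856 in Cre-only and from 9472 to 10203 in Runx1 c-k/o cells without each sample. Among the 43 surrounding genes, the count at 3 h moved from 0 to 2 with the RUVs factor in DESeq2 (Fosb and Bcl3), to 1 with it in edgeR (Bcl3), to 1 without replicate 1 (Bcl3) and to 3 without replicate 3 of the Runx1 c-k/o cells, a range of 0 to 3 without each sample. At rest it was 0 in all of these (0 to 0), and windows of 0.5 Mb (28 genes) and 2 Mb (the same number, 43) gave 0 at both times. Of the related lists, Eya1 was called in every alternative, while up to 5 of 43 genes were called at 3 h in some. Depth limits Six5 most, since its Cre-only counts lie under the floor of 3.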
